A study of Homo sapiens with 4 samples.

Results

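Genes of the G2 phase and of mitosis were followed across 4 hairpin RNAs in MV4-11 cells, an established human line of acute myeloid leukaemia with monocytic features and a KMT2A-AFF1 fusion. The list names 50 genes and was matched by gene symbol to the platform annotation. Of these, 48 have a probe set of their own, each of them exactly 1, among 12521 protein-coding genes above the table median in at least 1 array. BUB1B shares its only probe set with PAK6, and CENPA shares both of its probe sets with SLC35F6, so neither is counted. SGOL1 stands in the current annotation as SGO1. The series compares knockdown depths of RUNX1, which encodes a core factor of blood formation. The control hairpin targets luciferase, 1 hairpin against RUNX1 is labelled a moderate knockdown, and 2 further hairpins are labelled profound (profound 1 and profound 2). All of the cells, control included, carried a transduced hairpin and spent 24 h in 3 µM doxycycline, and no label names a genotype beyond the hairpin or says whether clones or pools of cells were used. Each hairpin contributed 1 whole-transcript array of total RNA. With 1 array per hairpin no difference has a replicate check, and no p-value is given.

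Cells pass from G2 into mitosis when cyclin B and CDK1 become active. The kinases, motors and kinetochore proteins that follow build the spindle, attach chromosomes to it and split the cell, and the anaphase-promoting complex (APC/C) then marks cyclins and securin for destruction. Most of these genes are transcribed late in the cell cycle. Their promoters are held down in resting cells by the DREAM complex, and in dividing cells the MuvB core of that complex works with B-MYB and FOXM1 to drive them. MuvB reaches DNA through the cell-cycle genes homology region, called CHR element, while CCAAT boxes are bound by NF-Y and E2F sites by E2F factors. The messages are abundant in cultures with many dividing cells, which is why MKI67 and TOP2A serve as proliferation markers. In RNA of a whole culture, fewer cells in G2 and mitosis and less message in each such cell cannot be told apart.

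The promoters of 5 genes of the entry into and the exit from mitosis are shown because the elements that the list shares can be read in them. Each line gives the 140 bases before the annotated start from RefSeq (GRCh38.p14), 5′ to 3′ on the strand of the gene. Capitals mark the CHR element (TTTGAA or TTCGAA), the CCAAT box, spelled by its name, or the E2F-type site (TTTGGCGC, TTTCCCGC or TTTCGCGC), each searched on both strands, so that a reverse CCAAT box reads ATTGG. CCNB2 lies at chr15:59105006-59105145 on the plus strand, CDC20 at chr1:43358841-43358980 plus, CDK1 at chr10:60778338-60778477 plus, PLK1 at chr16:23678749-23678888 plus and CDC25C at chr5:138331805-138331944 minus.
CCNB2: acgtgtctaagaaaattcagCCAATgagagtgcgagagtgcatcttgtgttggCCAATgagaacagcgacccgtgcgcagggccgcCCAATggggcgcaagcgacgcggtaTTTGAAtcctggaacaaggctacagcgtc
CDC20: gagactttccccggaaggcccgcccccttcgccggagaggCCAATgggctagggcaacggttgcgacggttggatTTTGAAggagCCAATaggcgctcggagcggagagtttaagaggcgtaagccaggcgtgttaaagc
CDK1: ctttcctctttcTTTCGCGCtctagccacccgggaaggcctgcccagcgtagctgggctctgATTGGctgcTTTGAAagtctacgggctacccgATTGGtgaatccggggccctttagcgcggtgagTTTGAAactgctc
PLK1: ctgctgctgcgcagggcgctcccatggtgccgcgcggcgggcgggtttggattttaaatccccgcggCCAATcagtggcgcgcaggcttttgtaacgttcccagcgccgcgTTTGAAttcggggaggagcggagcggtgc
CDC25C: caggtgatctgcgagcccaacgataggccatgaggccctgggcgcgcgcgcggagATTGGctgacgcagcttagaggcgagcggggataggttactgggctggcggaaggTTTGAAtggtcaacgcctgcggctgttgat

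In CCNB2, the gene of cyclin B2, 3 CCAAT boxes begin at positions -120, -87 and -54 from the start and are followed by a CHR element at -29. PLK1 and CDC25C each have a single CCAAT box, at -73 and -85, and a CHR element at -29 and -30. The CDC20 element stands farther out, at -65, between CCAAT boxes at -100 and -55. CDK1 holds 2 CHR elements, at -69 and -13, reverse CCAAT boxes at -78 and -46 and an E2F-type site at -128. The arrangement common to these 5 stretches is a CCAAT box upstream of a CHR element. A promoter was printed only if it held a CHR element, so the presence of that element was set by the choice. CCNA2 was also considered and left out because its window had no CHR match.

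Of the 50 listed genes, 43 have promoter windows in the RefSeq table, 55 windows in all, running from 250 bases before to 50 bases after a start. AURKA, BIRC5, FOXM1, RACGAP1, TPX2, TTK and UBE2C are not in it. Windows of one gene can overlap, so shares are also given by gene. A CHR element was found in 37 of 55 windows (67.3%). Over the windows of all genes tested the share was 12.0%, and over all windows listed 16.4%. A CCAAT box was present in 72.7% of the members' windows against 34.1% and 34.6%. Both together were present in 54.5%, against 4.84% and 6.38%. An E2F-type site was in 5 of 55 windows (9.09%) against 3.93% of the windows of genes tested and 2.74% of all windows. By gene, a CHR element was in 34 of 43 members (79.1%) against 15.5% of the genes tested, and a CCAAT box in 81.4% against 42.0%. Both were in 65.1% against 6.45%, and an E2F-type site in 9.30% against 5.28%. These are counts of letters in a window, and a match is not a measured binding site.

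The CHR matches were also placed closer to the start. Of 51 matches in members' windows, 37 (72.5%) lay within 50 bases of the start, against 546 of 1978 (27.6%) over all genes tested. A match in overlapping windows of the same gene is counted once per window, as for CDC25C and ECT2. The 9 genes of the table without a match were CCNA2, CCNB1, AURKB, CENPE, KIF20A, KIF2C, PTTG1, NEK2 and TACC3. Among measured members, those with a match had a median difference of -0.69 log2 units between profound 1 and control (n = 32). Those without a match had -0.74 (n = 9). Only TTTGAA and TTCGAA were searched, so a gene without a match is not shown to lack a CHR element of another spelling. The ranges overlapped, from -1.16 to -0.28 with a match and from -0.89 to -0.12 without one.

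**Figure D1:**
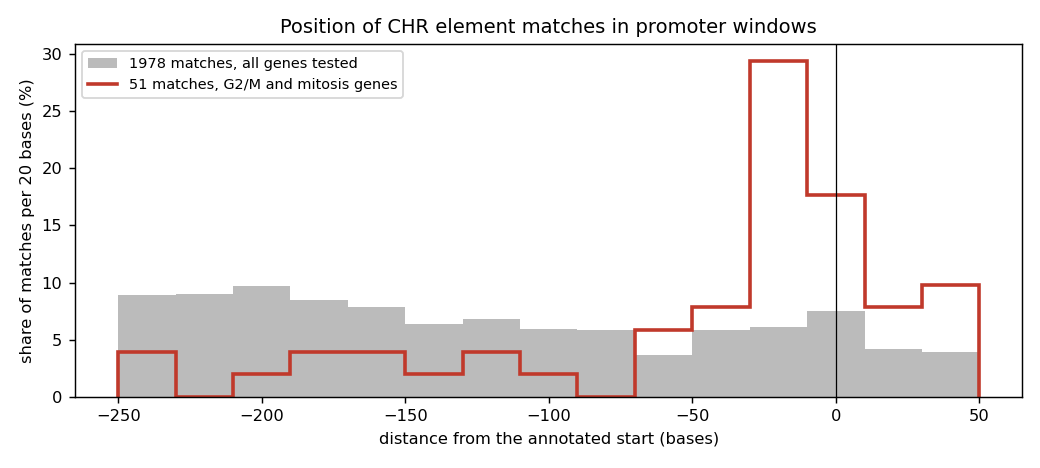
Share of CHR element matches per 20 bases (vertical axis, percent) by distance from the annotated start (horizontal axis, bases) for 51 matches in windows of the G2/M and mitosis genes (red outline) and 1978 matches in windows of all genes tested (grey). The members' matches gather near the start, with 37 of 51 within 50 bases of it, while the grey matches are spread more evenly.

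The arrays had medians of 3.07 to 3.09 log2 units. RUNX1 has a single probe set, shared with LOC100506403, which read 4.27 in control and 4.33, 4.07 and 4.04 in the moderate, profound 1 and profound 2 arrays. The lowest of these differences from control was -0.22 log2 units, so each array is called by its label, and no direction is drawn from the depth of knockdown. The description fields of both profound arrays name RUNX2 and RUNX3 as targets, while their titles and genotype fields name RUNX1. Of 10 markers of this myeloid line 8 were measured and 7 of them, such as SPI1, LYZ and FLT3, exceeded the table median (3.08) in all arrays. CD14, a monocyte surface marker, read 2.10 to 2.33, below that median. Markers of fibroblasts, epithelial, T, B and erythroid cells had summed levels of 3.13 to 5.00 log2 units, against 11.97 to 12.13 for the myeloid list. These sums cover 8 myeloid genes, of which LYZ alone read 11.34 to 11.57, and 2 to 4 genes in each other list. COL1A1, KRT18 and CD79A of the other lists also exceeded the table median in all arrays. The B cell sum was highest in profound 1 (5.00) and lowest in profound 2 (4.40), and its part in the results was not tested.

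All 48 measured genes were lowest in the array labelled profound 1. For comparison, 32.7% of all genes tested had their lowest value there. In 39 of the 48 the control array was highest, which holds for 22.7% of all genes. The commonest order, from high to low, was control, moderate, profound 2, profound 1 (22 genes, or 45.8%, against 6.75% of all genes). The next was control, profound 2, moderate, profound 1 (17 genes, or 35.4%, against 5.57%). The list as a whole therefore sets profound 1 below the other arrays, with the moderate and profound 2 arrays close to each other.

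**Figure D2:**
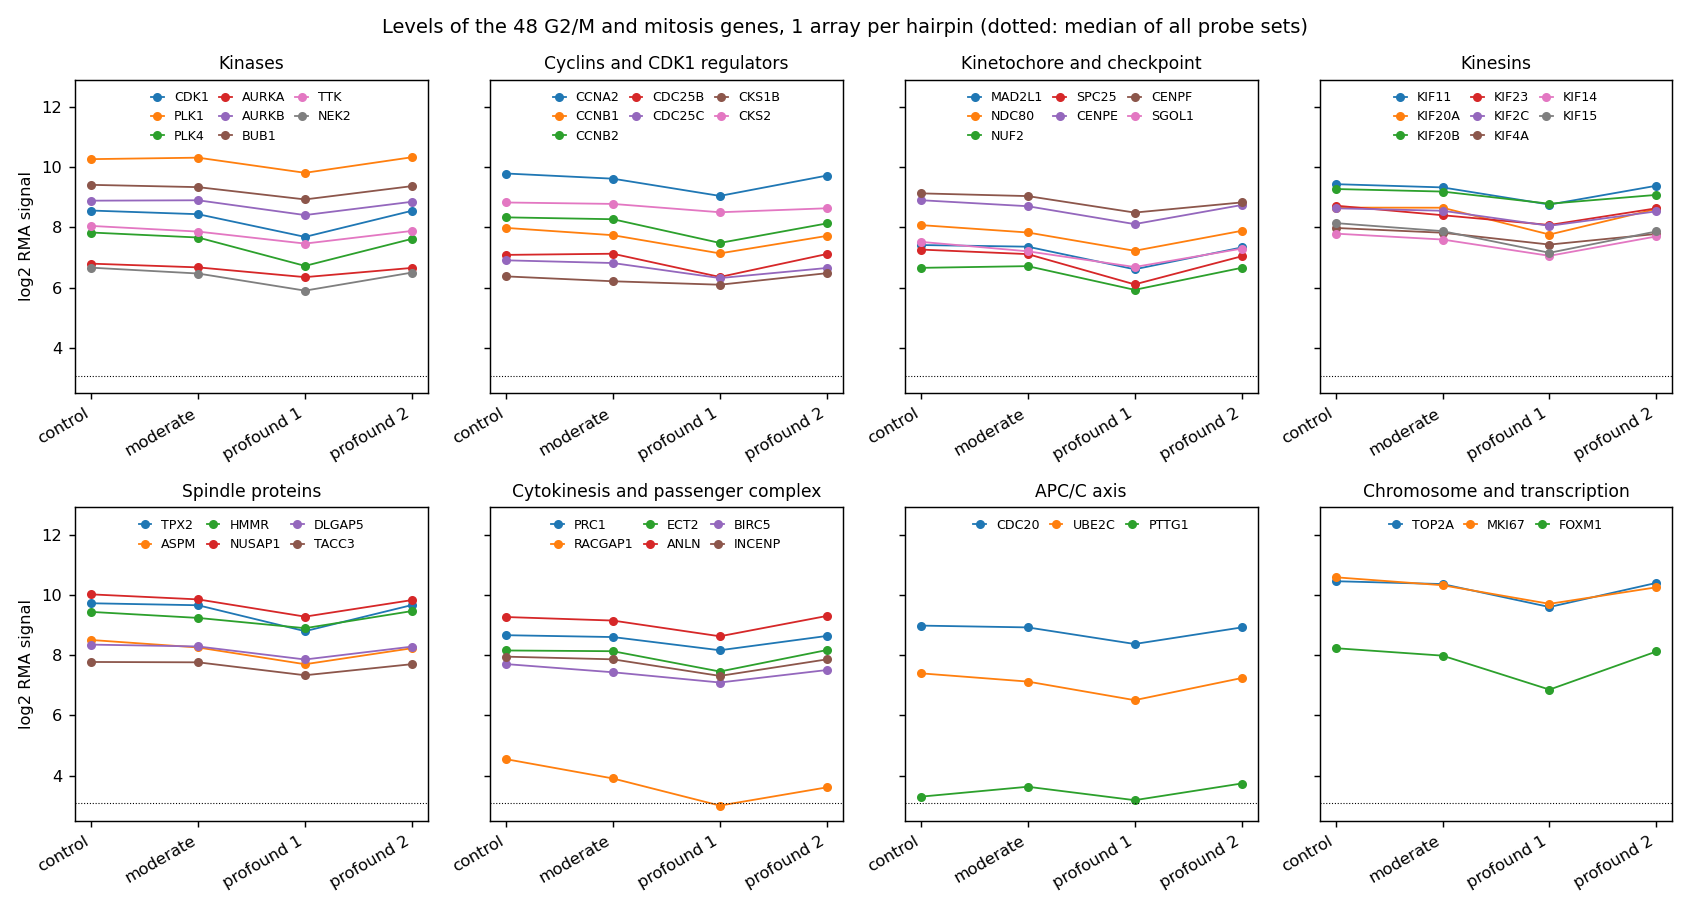
Deposited log2 RMA signal (vertical axis) of each of the 48 genes in the control, moderate, profound 1 and profound 2 arrays (horizontal axis), 1 panel per role and 1 line per gene, with the median of all probe sets dotted. Each line has its lowest point at profound 1, and RACGAP1 and PTTG1 run near the dotted line while the others run well above it.

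Differences from control are given in log2 units, a difference of 1 being a change by a factor of 2, and a gene is counted as lower or higher past 1.5-fold, that is 0.585 log2 units. In profound 1, 34 of 48 genes stood below control by 1.5-fold or more, against 4.04% of all genes tested, and none was higher, against 2.68%. Their median was -0.71, or 1.64-fold lower, and the range ran from -1.54 to -0.12. The median over all genes was -0.00. All 48 lay below control, as did 50.5% of all genes. At least 2-fold lower were 4 genes, RACGAP1, FOXM1, SPC25 and PLK4, against 0.471% of all genes, and RACGAP1 read under the table median in profound 1.

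Profound 2 differed far less from the same control array. There 1 of 48 genes, RACGAP1, was 1.5-fold lower (1.01% of all genes) and none was higher (1.20%). The median was -0.10, or 1.07-fold, with a range of -0.94 to 0.44, and 40 of 48 lay below control against 50.3% of all genes. In the moderate array RACGAP1 was again the single gene 1.5-fold lower (0.447% of all genes), and none was higher (0.863%). The median was -0.12, or 1.09-fold, the range -0.64 to 0.33, and 43 of 48 lay below control against 48.1%. All of these comparisons share the control array, so their differences are not independent of each other.

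**Figure D3:**
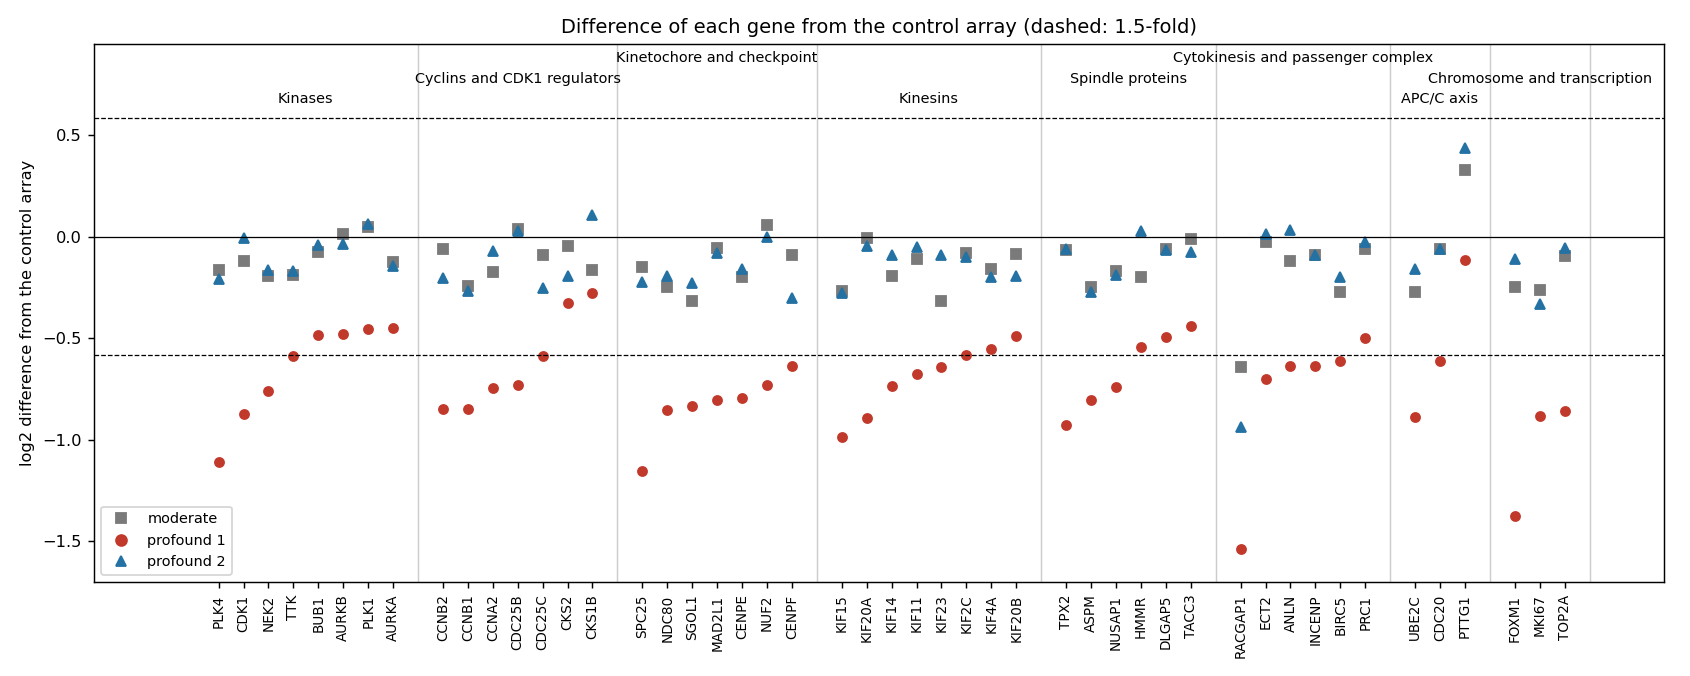
Log2 difference of each of the 48 genes (horizontal axis, grouped by role) from the control array (vertical axis) in the moderate, profound 1 and profound 2 arrays, with 1.5-fold dashed. The profound 1 points lie between -1.54 and -0.12, and most points of the other arrays lie between the dashed line and 0. RACGAP1 lies under the dashed line in all of them, 5 genes in moderate and 8 in profound 2 lie above 0, and PTTG1 is highest at 0.33 and 0.44.

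Comparisons that leave the control array out gave the same placing of profound 1. Against the moderate array 19 of 48 genes were 1.5-fold lower in profound 1 (3.49% of all genes) and none was higher (1.65%), with a median of -0.55 and a range of -1.13 to -0.11. Against profound 2, 23 of 48 were lower (2.95%) and none was higher (2.06%), with a median of -0.57 and a range of -1.26 to -0.13. All 48 were below 0 in both, against 51.8% and 51.1% of all genes. These comparisons share the profound 1 array.

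Profound 2 and the moderate array read alike in size for most of these genes. None was 1.5-fold lower in profound 2 (1.60% of all genes) or higher (1.04%), the median was -0.00, and the genes split into 25 below 0 and 23 above, with 52.4% of all genes below. A further measure was the spread of the moderate array against control at the level of each gene, a robust SD of 0.25 log2 units in the dimmest and 0.11 in the brightest of 6 level classes. Profound 1 was below control by more than this spread in 47 of 48 genes (26.1% of all genes), the exception being PTTG1, and below profound 2 in 48 of 48 (25.9%). The moderate array was below control by more than it in 25 of 48 (14.8%) and above in 1 (18.0%). Profound 2 was below control by more than it in 22 of 48 (19.3%) and above in 1 (18.6%). The gene above was PTTG1 in both, so the smaller differences of these arrays also lay mostly on the low side of the shared control. Profound 2 and moderate differed by more than it in 12 of 48, 6 in each direction, against 40.2% of all genes. That spread comes from a pair of single arrays and is no replicate error.

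**Figure D4:**
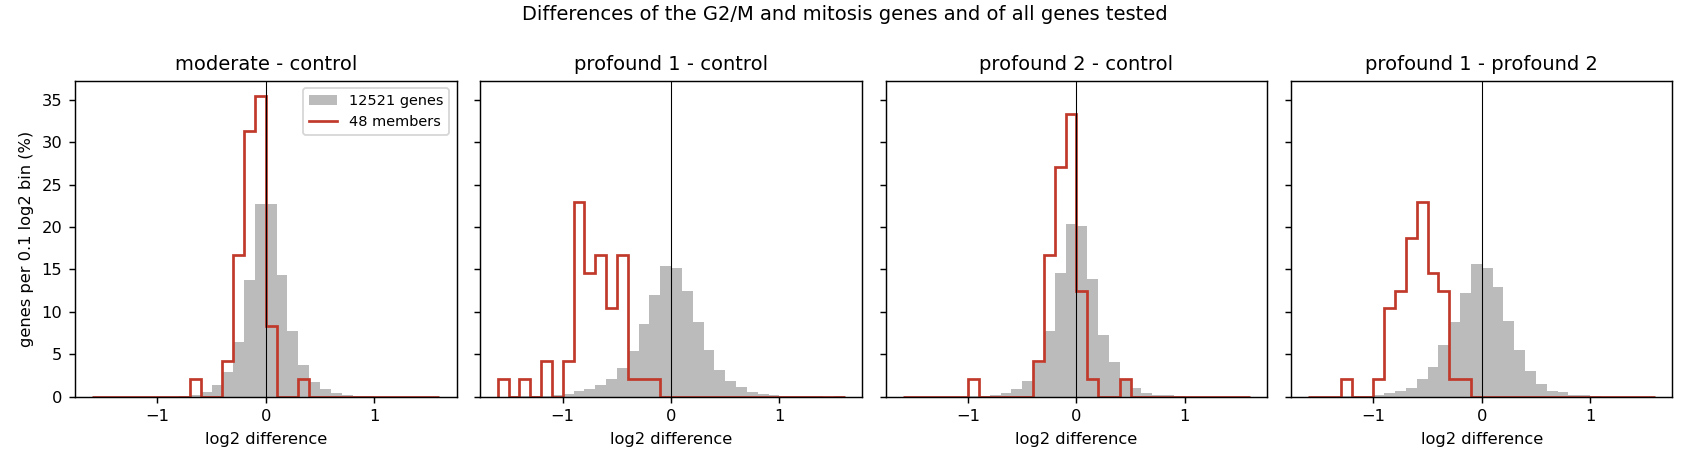
Percent of genes per bin of 0.1 log2 units (vertical axis) by log2 difference (horizontal axis) for the 48 G2/M and mitosis genes (red outline) and all 12521 genes tested (grey), 1 panel per comparison. The red outline is displaced to the left of 0 for profound 1, with a median of -0.71 against control, and stays near 0 for the moderate and profound 2 arrays.

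Values of 4 arrays are given below in the order control, moderate, profound 1 and profound 2, in log2 units of deposited signal, and single differences are from control unless another array is named. They compare arrays for 1 probe set and not 1 gene with another. FOXM1, the forkhead factor that activates G2/M promoters, read 8.23, 7.98, 6.85 and 8.12. It was 2.59-fold lower in profound 1 than in control, 2.18-fold lower than in moderate and 2.40-fold lower than in profound 2, and its profound 1 difference ranked 5 from the lowest among 12521 genes. TOP2A, the topoisomerase that untangles replicated chromosomes, read 10.45, 10.36, 9.59 and 10.40. MKI67, whose protein coats mitotic chromosomes, read 10.58, 10.32, 9.70 and 10.25. All of this group were 1.5-fold lower in profound 1 (3 of 3, median -0.88), while the group's medians in moderate and profound 2 were -0.25 and -0.11.

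Among the mitotic kinases 4 of 8 were 1.5-fold lower in profound 1 (median -0.54), with medians of -0.12 in moderate and -0.09 in profound 2. PLK4, the kinase that starts centriole duplication, was the lowest of them and read 7.83, 7.66, 6.72 and 7.62, a 2.16-fold difference in profound 1. CDK1, the kinase that drives entry into mitosis, read 8.56, 8.44, 7.68 and 8.55. Its value in profound 2 was within 0.01 log2 units of control while profound 1 was 1.83-fold lower. The centrosome kinase gene NEK2 (-0.76) and the checkpoint kinase gene TTK (-0.59) were the other 2 past 1.5-fold in profound 1.

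The remaining kinases fell short of that size in profound 1. PLK1, which acts at centrosomes and kinetochores, read 10.26, 10.31, 9.81 and 10.33. AURKB, the kinase of the chromosomal passenger complex, read 8.89, 8.90, 8.41 and 8.85. AURKA, which matures the centrosomes, read 6.80, 6.67, 6.35 and 6.66. For PLK1 and AURKB the array labelled moderate stood slightly above control, and for AURKA all 3 RUNX1 hairpins stood below it. BUB1, a checkpoint kinase of the kinetochore, was at -0.48 in profound 1 and -0.04 in profound 2.

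Cyclins and other regulators of CDK1 had 5 of 7 genes 1.5-fold lower in profound 1, with medians of -0.73 there, -0.09 in moderate and -0.19 in profound 2. CCNB2, the cyclin B2 gene whose promoter is printed above, read 8.33, 8.27, 7.48 and 8.13. CCNB1, for cyclin B1, read 7.98, 7.74, 7.14 and 7.72. Both were 1.80-fold lower in profound 1, although no CHR match was found in the CCNB1 window. CCNA2, for the S and G2 cyclin A2, was at -0.74, and the phosphatase genes CDC25B and CDC25C, whose products activate CDK1, were at -0.73 and -0.59. The CDK subunit genes CKS2 and CKS1B were the least different. CKS1B read 6.37, 6.21, 6.10 and 6.48 and was the gene closest to its moderate value in profound 1, at -0.11.

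Genes of the kinetochore and the spindle checkpoint were lower in profound 1 without exception among those measured (7 of 7 past 1.5-fold, median -0.81, against -0.15 in moderate and -0.19 in profound 2). SPC25, a subunit of the NDC80 complex that holds microtubules, read 7.26, 7.11, 6.11 and 7.04 and was 2.23-fold lower. Its partners NDC80 (-0.85) and NUF2 (-0.73) were lower as well. NUF2 read 6.66, 6.71, 5.93 and 6.66, so that its profound 2 reading equalled control to 2 decimals. SGOL1, which protects centromeric cohesion, was at -0.84, the checkpoint gene MAD2L1 at -0.81 and the kinetochore motor gene CENPE at -0.79. CENPF, a large kinetochore protein gene, had the smallest difference of the group and read 9.13, 9.04, 8.49 and 8.83.

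The genes left out for shared probe sets did not behave alike. The probe set shared by BUB1B, a checkpoint gene, and PAK6 read 6.88, 6.61, 6.28 and 6.81. The probe sets shared by CENPA, the centromeric histone gene, and SLC35F6 went in opposite directions in profound 1. One read 6.71, 6.90, 7.33 and 6.99, and the other 7.42, 7.48, 6.78 and 7.43. Which of the paired genes each of them measures was not tested.

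Of 8 motor genes of the kinesin family 5 were 1.5-fold lower in profound 1 (median -0.66, against -0.13 in moderate and -0.10 in profound 2). KIF15, a spindle motor, read 8.14, 7.88, 7.16 and 7.87 and was 1.98-fold lower. KIF20A, needed in cytokinesis, was at -0.89, and KIF11, which pushes spindle poles apart, at -0.68. KIF14 and KIF23, both of the midbody, were at -0.74 and -0.64. KIF23 had the lowest moderate value of the kinesins, at -0.32. Below the 1.5-fold size were KIF2C, which takes microtubules apart (-0.58), the chromosome motor gene KIF4A (-0.55) and KIF20B. KIF20B read 9.27, 9.19, 8.79 and 9.08.

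Genes of spindle assembly had 3 of 6 past 1.5-fold in profound 1 and medians of -0.64, -0.12 and -0.07 in profound 1, moderate and profound 2. TPX2, which activates Aurora A on the spindle, read 9.72, 9.65, 8.79 and 9.66 and was 1.90-fold lower in profound 1. ASPM, a protein of the spindle poles, was at -0.81 and the microtubule bundling gene NUSAP1 at -0.74. HMMR (-0.54) and DLGAP5 (-0.49), both of spindle microtubules, were short of the size. TACC3, which stabilises kinetochore fibres, read 7.77, 7.76, 7.33 and 7.70.

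In the group of cytokinesis and of the chromosomal passenger complex 5 of 6 were 1.5-fold lower in profound 1, with medians of -0.64, -0.10 and -0.06 in profound 1, moderate and profound 2. RACGAP1, a subunit of centralspindlin, read 4.55, 3.91, 3.01 and 3.61. It was the one member past 1.5-fold in every RUNX1 hairpin, at differences of -0.64 in moderate, -1.54 in profound 1 and -0.94 in profound 2. Its signal was low, and in profound 1 it was under the median of the table, so the size and rank of its difference are uncertain. ECT2, which its complex recruits to the cleavage site, was at -0.70, the scaffold gene ANLN at -0.64, and the passenger genes INCENP and BIRC5 at -0.64 and -0.61. PRC1, which bundles the central spindle, read 8.66, 8.60, 8.16 and 8.63.

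The APC/C axis held 2 of 3 genes past 1.5-fold in profound 1, with medians of -0.61, -0.06 and -0.06 in profound 1, moderate and profound 2. UBE2C, the conjugating enzyme of the complex, read 7.39, 7.12, 6.50 and 7.24. CDC20, its activator in mitosis, read 8.98, 8.92, 8.37 and 8.92. PTTG1, the securin gene, read 3.30, 3.63, 3.18 and 3.74. This is a dim probe set near the table median, and PTTG1 had the smallest profound 1 difference of the list.

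Members just past 1.5-fold in profound 1 were TTK (-0.59) and CDC25C (-0.59), and KIF2C (-0.58) stood just short of it. By role, the medians in profound 1 ran from -0.54 for the kinases to -0.88 for the group of FOXM1, TOP2A and MKI67. Across the 48 genes, the difference between profound 1 and profound 2 and that between moderate and control, which share no array, had a Pearson r of 0.10 and a Spearman rho of 0.10. Over all 12521 genes both were 0.20. The difference between profound 1 and moderate and that between profound 2 and control also share no array. Across the 48 genes they had a Pearson r of 0.26 and a Spearman rho of 0.14, against 0.23 and 0.21 over all genes. These are descriptions across genes normalised together, which are not independent replicates.

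Other genes of the cell cycle were taken in 12 lists with 201 distinct names, of which 184 were measured and above the table median in at least 1 array. They are set beside the members against the same backgrounds. Other kinetochore and centromere genes had 18 of 32 past 1.5-fold in profound 1 (median -0.64), and none was higher. They included CENPM (-1.06), ZWINT (-1.05), CENPK (-1.04) and OIP5 (-1.03). MAD1L1, a spindle checkpoint gene, was highest at 0.15. The list's medians in moderate and profound 2 were -0.13 and -0.14. Condensin and cohesin genes had 10 of 18 lower (median -0.60), from the cohesin core gene SMC1A (-1.07) and the separase gene ESPL1 (-0.87) to WAPL, a cohesin release gene, at 0.04.

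Other cell cycle kinase genes had 6 of 15 lower in profound 1 (median -0.55), namely MELK (-1.04), MASTL (-0.93), CHEK1 (-0.92), PBK (-0.82), WEE1 (-0.80) and PLK3 (-0.66). NEK9 was highest at 0.37. CHEK1, the replication checkpoint kinase gene, was at -0.54 in profound 2. Other mitotic kinesin genes had 3 of 4 lower (median -0.87), namely KIF18A (-1.08), KIF18B (-0.98) and KIFC1 (-0.76), and KIF22 was at -0.39. The list called transport kinesins had 0 of 12 past 1.5-fold (median -0.06). Of all genes 4.04% were lower and 2.68% higher, so a list of this size would hold few or none at those shares. Its genes ran from KIF21B (-0.42) to KIFAP3 (0.27), which encodes a kinesin-associated protein and no motor. KIF2A (-0.13), which is not a transport motor alone, is in the list as well. KIF5B, the conventional kinesin heavy chain gene, read 9.92, 9.92, 10.01 and 10.02.

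Core subunits of the APC/C had 1 of 14 past 1.5-fold lower in profound 1, ANAPC11 (-0.93), beside 4.04% of all genes, with a median of 0.01 and CDC27 highest at 0.19. Of 3 measured regulators of the complex 2 were lower, the inhibitor gene FBXO5 (-0.77) and the chain-extending enzyme gene UBE2S (-0.60), and the activator gene FZR1 was at -0.31. Other cytokinesis genes had 3 of 12 lower (median -0.26), beside 4.04% of all genes. These were CKAP2L (-0.75), CEP55 (-0.65) and DEPDC1B (-0.64), and SEPTIN9 was at 0.09. Other spindle genes had 6 of 13 lower (median -0.56), among them GTSE1 (-0.79) and FAM83D (-0.78), and PSRC1 was at 0.23.

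Genes of the DREAM and MuvB machinery had 3 of 10 lower and 1 higher in profound 1 (median -0.23), beside 4.04% and 2.68% of all genes. TFDP1, a dimerisation partner of E2F factors, read 7.27, 6.60, 5.94 and 7.28, at -0.67 in moderate and -1.33 in profound 1 and level with control in profound 2. MYBL2, which encodes B-MYB, read 9.43, 9.35, 8.58 and 9.39. RBL1, the p107 pocket protein gene, was at -0.70, and LIN37, a MuvB core subunit gene, was the higher one and read 7.42, 7.67, 8.04 and 7.58. Genes of S phase had 30 of 41 past 1.5-fold (median -0.84), from CCNE2, the cyclin E2 gene, at -1.55 to POLD3 at 0.07, and their medians in moderate and profound 2 were -0.17 and -0.18.

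Inhibitors of CDKs and p53 targets had 1 of 12 lower in profound 1, beside 4.04% of all genes, and a median of 0.00. The lower gene was CDKN3, a phosphatase that acts on CDKs and is itself made late in the cycle, which read 8.70, 8.58, 7.27 and 8.73. CDKN1A, the p21 gene, read 5.59, 5.56, 5.64 and 5.62, and CDKN1B, the p27 gene, was at -0.01. TP53INP1 was highest at 0.47.

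**Figure D5:**
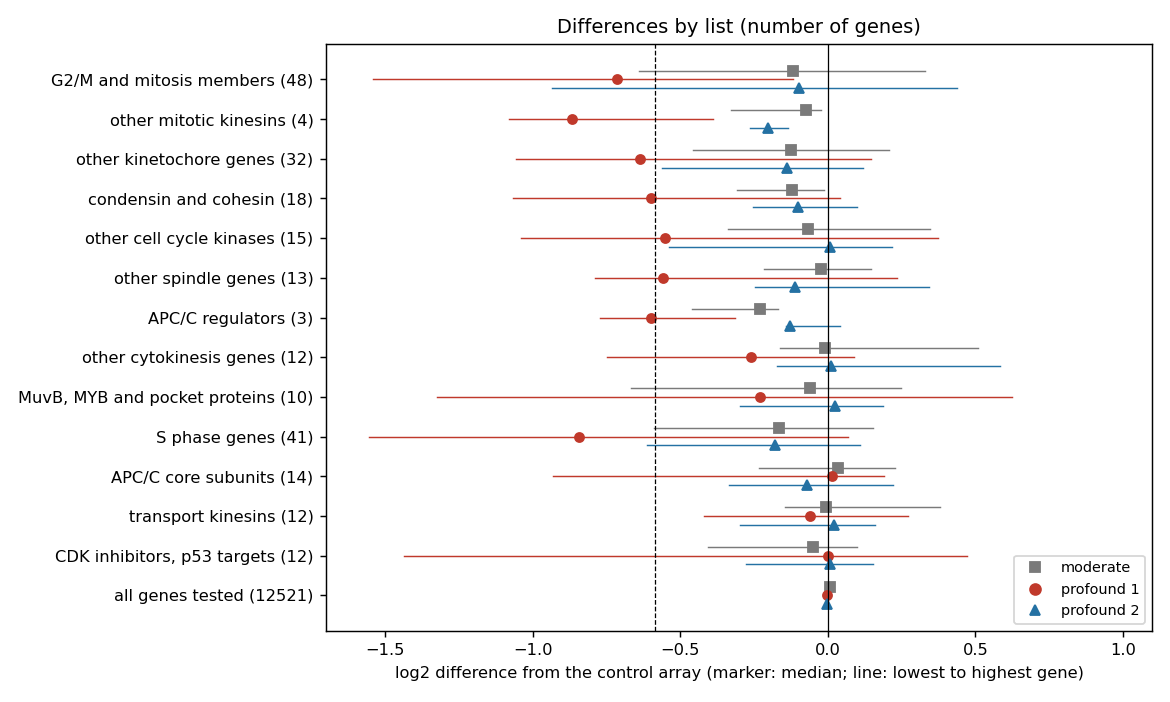
Log2 difference from the control array (horizontal axis) in the moderate, profound 1 and profound 2 arrays. Rows are the members as a single list, each further cell-cycle list and all genes tested (vertical axis, number of genes in brackets). The marker is at the median and 1.5-fold is dashed. The line runs from the lowest to the highest gene and is not drawn for all genes tested. Profound 1 medians are -0.71 for the members, -0.87 for other mitotic kinesins and -0.84 for S phase genes. They lie at -0.06 for transport kinesins, 0.01 for APC/C core subunits and 0.00 for CDK inhibitors and p53 targets.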

How the data were processed

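The table deposited by the authors holds log2 signals of 53617 probe sets on 4 arrays, 1 per hairpin. The submitters' processing notes name RMA, Affymetrix Expression Console 1.3.1 and Transcriptome Analysis Console 1.0. RMA corrects background, quantile-normalises and summarises probes. The genome build was not given in the sources used here, nor were settings. A change that moves most genes one way cannot be seen after quantile normalisation, and differences of dim probe sets are understated. No depth applies to arrays, and their number limits the precision.

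Groups follow the genotype field. Of the probe sets, 23871 have 1 gene symbol, 1842 several, which name no gene, and 27904 none listed. Symbols were updated through RefSeq (88 by Entrez ID, 565 by synonym). Where a gene had several, the brightest by its mean was used. Genes tested were protein coding and above the table median (3.08) in at least 1 array (12521). Differences were computed in Python 3.11.15 with pandas 2.3.3 and drawn with matplotlib 3.10.9, and cyclic loess was run with limma 3.58.1 in R 4.3.3. The counting was tested on simulated data. Promoter windows came from RefSeq GRCh38.p14.

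The members, lists and rules were chosen with earlier results of these data known. Every measured member is named. All 4 values are given for the lowest and highest of each role by the profound 1 difference, for central regulators, and for genes 1.5-fold from control in the moderate or profound 2 arrays, besides a few others named after their values were seen. Of the further lists the lowest, the highest and some genes past 1.5-fold are named. Alternatives were cyclic loess, median centring, filters, the size, the mean for the median, all probe sets of a gene, shorter promoter windows, and, chosen after seeing the data, inclusion of the 3 shared probe sets.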

Additional observations from a re-analysis of the deposited data

Results flagged for a closer look

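All 48 genes were below control in profound 1, and 8 of them were at or above it in profound 2. The differences between arrays were not tested, since each is 1 array. Values are given for profound 1, profound 2 and moderate, in this order. CDC25B, a CDK1-activating phosphatase gene, was at -0.73, 0.028 and 0.038, and NUF2, of the kinetochore, at -0.73, 0.0009 and 0.057. PLK1 was at -0.45, 0.063 and 0.049, and PTTG1, the securin gene, at -0.12, 0.44 and 0.33.

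In a further 4 the moderate array was below control as well. ECT2, of cytokinesis, was at -0.70, 0.014 and -0.024, and the cleavage furrow scaffold gene ANLN at -0.64, 0.035 and -0.12. HMMR was at -0.54, 0.027 and -0.20, and CKS1B at -0.28, 0.11 and -0.16. AURKB had the reverse signs, at -0.48, -0.036 and 0.014. PTTG1 is a dim probe set, and it was the one gene above control by more than the spread at its level (0.25) in profound 2. For the other 7 the profound 2 value was smaller than that spread.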

How the results depend on the processing

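Counts of genes past the size rule moved with that rule. At 2-fold, 4 of 48 genes were lower in profound 1 than in control, 2 lower than in moderate and 1 lower than in profound 2, and 0 were lower than control in moderate or in profound 2. At a looser size of 0.32 log2 units, 46 were lower in profound 1 than in moderate, 45 lower than in profound 2, and 2 were lower in profound 2 than in control. Over all genes, the share at these sizes was counted only for 2-fold lower in profound 1 than in control (0.471%). The other counts at these sizes therefore cannot be set against a background. Among the 46 genes with a mean above the 75th percentile of the table (5.05), which leaves out RACGAP1 and PTTG1, 0 were 1.5-fold lower than control in moderate or in profound 2. The other 80 of 90 values of counts and medians kept within 1.5 times the count or 0.05 log2 units, including those with the 3 shared probe sets of BUB1B and CENPA, an alternative chosen after seeing the data. All 432 differences of single genes, under cyclic loess, centring and the mean of all probe sets, changed by less than the spread at the level of the gene. That spread, of moderate against control, was 0.11 to 0.25 log2 units and is a looser limit than the 0.05 used for medians. The mean of all probe sets could change nothing, because each member has 1 probe set. Nor could the filter at the table median, which all 48 genes pass. Each of these alternatives accounts for 12 of the 80 values. Median centring shifted the arrays by -5.72 to -5.67 log2 units. Shifts so alike could not move a median or a single gene past its limit, so under centring only counts could move. In the last 150 bases of the promoter windows, a CHR element was in 60.0% of the members' windows, against 5.10% of the windows of genes tested. An E2F-type site was in 2 of 55 windows (3.64%) against 1.96%. Of the promoter shares, that of the E2F-type site alone moved by more than 1.5 times, from 9.09% in the full windows. No paired analysis was possible because each hairpin has 1 array. For the same reason no array could be left out. Dim probe sets, here RACGAP1 and PTTG1, have the least certain differences.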

Other observations

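Among other cytokinesis genes, PIMREG was at 0.00 in profound 1, 0.51 in moderate and 0.58 in profound 2.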
